A study of Homo sapiens with 12 samples.

Results

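The genes described here are 39 genes of the response to low oxygen and of glycolysis, out of 58302 gene rows in the deposited table, chosen by symbol: glucose and lactate transporters, the enzymes from hexokinase to lactate dehydrogenase, regulators of glycolytic flux, targets of the hypoxia-inducible factors (HIF) and 2 HIF subunits. RNA was sequenced from TPC1, an established human papillary thyroid carcinoma cell line, and from its Dicer1 (+/-) clones D11, WB1 and TD5, with 3 libraries per line and 12 in all. The clones were made with CRISPR-Cas9 and a guide in exon 11 of Dicer1, the gene of the enzyme that cuts microRNA precursors, and each was grown from a single sorted cell, so that a line is 1 clone and clone differences cannot be told apart from the loss of a Dicer1 allele. TPC1 cells carry the unmodified gene and had no control transfection named in the labels. All lines were kept at 37 °C under 5% CO2 in medium with 10% serum, and no oxygen treatment is named, so the 4 lines were compared under routine culture. The labels do not say whether the 3 libraries of a line came from separate cultures, so p-values measure the spread between these libraries only.

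HIF is a dimer of an oxygen-regulated alpha subunit (HIF1A or EPAS1, the gene of HIF-2alpha) and a constant beta subunit. Prolyl hydroxylases of the EGLN family mark the alpha subunit for destruction when oxygen is present. When it is short, HIF binds a short core motif near its targets and raises transporters and enzymes of glycolysis. It also raises the kinase PDK1, which inhibits pyruvate dehydrogenase, the angiogenic factor VEGFA, and the mitophagy receptors BNIP3 and BNIP3L. HIF1A is controlled largely through protein stability, which RNA does not measure. Thyroid carcinomas, like many solid tumours, use glycolysis heavily.

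The core motif was looked up first, since many of these genes are known HIF targets. RefSeq promoter windows (GRCh38.p14, 250 bases before to 50 after a start site, 300 in all) were matched by symbol for 35 of the 39 genes, and SLC2A3, VEGFA, BNIP3L and NDRG1 were not matched. The 35 genes had 63 windows, since 12 of them had several start sites. The letters ACGTG or GCGTG, searched on both strands, stood in 43 of the 63 windows (68.3%), against 60.4% of the 14817 windows of genes tested here and 48.4% of all 35116 windows. ACGTG alone stood in 39.7% of the members' windows, against 25.5% of windows of tested genes. GCGTG stood in 41.3% against 48.1%. The palindrome CACGTG, which contains ACGTG on both strands, stood in 12.7% against 9.4%. A match describes letters only and shows no binding. The stretches below lie before the start sites of 4 genes called in a comparison, without bases that an annotated exon covers, 5′ to 3′ on the gene's strand, with every match in capitals (a capital CACGC or CACGT is a match on the other strand). BNIP3 (chr10:131981968-131982173, minus strand) is shown for its cluster of 6 matches (CACGTG counts on both strands), ANGPTL4 (chr19:8363905-8364154, plus strand) and PFKFB4 (chr3:48556924-48556982, minus strand) for their large differences, and DDIT4 (chr10:72273705-72273918, plus strand) as a gene called between clones only.
BNIP3: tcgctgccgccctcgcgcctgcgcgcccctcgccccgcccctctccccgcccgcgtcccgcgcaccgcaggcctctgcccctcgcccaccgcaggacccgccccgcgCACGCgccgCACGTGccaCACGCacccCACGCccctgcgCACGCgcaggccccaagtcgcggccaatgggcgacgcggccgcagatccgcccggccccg
ANGPTL4: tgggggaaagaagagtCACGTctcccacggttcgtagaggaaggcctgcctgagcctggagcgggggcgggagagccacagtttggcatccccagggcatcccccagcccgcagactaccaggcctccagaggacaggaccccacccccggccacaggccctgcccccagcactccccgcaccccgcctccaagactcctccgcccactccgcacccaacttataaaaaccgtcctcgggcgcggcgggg
PFKFB4: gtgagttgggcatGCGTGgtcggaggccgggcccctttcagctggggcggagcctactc
DDIT4: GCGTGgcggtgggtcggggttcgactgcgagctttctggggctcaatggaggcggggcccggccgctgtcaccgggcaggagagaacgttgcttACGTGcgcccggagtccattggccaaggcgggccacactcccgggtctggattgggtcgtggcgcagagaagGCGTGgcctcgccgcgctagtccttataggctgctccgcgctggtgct

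Values are gene counts that the authors scaled to 20000000 reads per library, called scaled reads here. A gene was tested where it reached 1 read per 1000000 in at least 3 libraries, which held for 16027 genes and for 36 of the 39. ALDOC (5 to 22 scaled reads), CA9 (0 to 3) and EGLN3 (0 to 6) were not tested. The other 36 were called where limma gave an adjusted p under 0.05 over all tested genes and the difference was at least 1.5-fold. The estimated depth was 12700000 to 21020000 reads per library, which puts the floor of 3 reads at 2.85 to 4.72 scaled reads, so CA9 was at or under it in every library.

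DICER1 was given first as a check of the labels. It had 1360, 1129 and 1101 scaled reads in TPC1, 977, 1051 and 1093 in D11, 881, 939 and 815 in WB1, with 643, 627 and 809 in TD5. All 9 clone libraries were below all 3 TPC1 libraries. The log2 difference from TPC1 was -0.19 ± 0.10 (SE, limma adjusted p = 0.138) in D11, -0.43 ± 0.10 (adjusted p = 0.00404) in WB1 and -0.77 ± 0.10 (adjusted p = 9.02e-05) in TD5. The thyroid factor PAX8 was present in every library, at 7248 to 9879 scaled reads, whereas NKX2-1, TSHR and SLC5A5 were listed at 0 in all 12. FOXE1, another thyroid factor, had 316, 286 and 280 scaled reads in TPC1, 123, 136 and 171 in D11, 151, 132 and 112 in WB1, with 131, 93 and 128 in TD5, and was lower in each clone (log2 differences of -0.95, -1.06 and -1.20, limma adjusted p = 0.000138, 5.16e-05 and 2.79e-05). Of 5 epithelial markers, KRT8 and KRT18 were high and KRT19, EPCAM and CDH1 were at 0 to 6. Fibroblast markers summed to 165 to 362 scaled reads and endothelial markers to 0 to 9, and of 4 leukocyte markers only CD68 was above 3. Among the fibroblast markers, LUM had 78, 73 and 63 scaled reads in TPC1 and 138, 212 and 148 in WB1, but 0 in all D11 libraries and 0 to 2 in TD5. PDGFRB had 112 to 192 in TPC1, 95 to 135 in D11 and 139 to 158 in TD5, but 37 to 56 in WB1. Genes encoded by the mitochondrial genome took 1.33% to 1.45% of scaled reads in TPC1, 2.07% to 2.18% in D11, 1.91% to 2.22% in WB1 and 1.67% to 1.95% in TD5, so that every clone library was above every TPC1 library. The part of the marker genes and of the mitochondrial share in the results was not tested. In these bulk libraries, fewer cells with a transcript and less transcript per cell cannot be told apart.

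The study asks what partial or total loss of Dicer1 does, and these clones carry the partial loss, so each clone was set against the parental line. In D11, 0 of the 36 genes were called higher and 0 lower than in TPC1, where 2.89% and 1.95% of all tested genes were called. At an unadjusted limma p under 0.05, 4 were higher and 13 lower, and voom on estimated reads also called 0. Here and below, shares of all tested genes at an unadjusted p were not worked out. Counts at that threshold are therefore not read as particular to the members or lists. In WB1, 8 were higher (all tested genes, 3.39%) and 0 lower (1.59%). In TD5, 11 were higher (1.12%) and 0 lower (1.48%). At an unadjusted p, 11 genes were lower in WB1 and 2 in TD5, and voom called 0 lower in both. The median log2 difference of the 36 genes was -0.12 in D11, 0.22 in WB1 and 0.32 in TD5, with medians over all tested genes of 0.05, 0.06 and 0.00. Under the alternatives and with each library left out, the members' medians ran from -0.18 to -0.05, 0.06 to 0.26 and 0.27 to 0.40. The 0.06 in WB1 was without the filter on low values, which brings in the 3 untested genes. These comparisons share the TPC1 libraries.

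**Figure D1:**
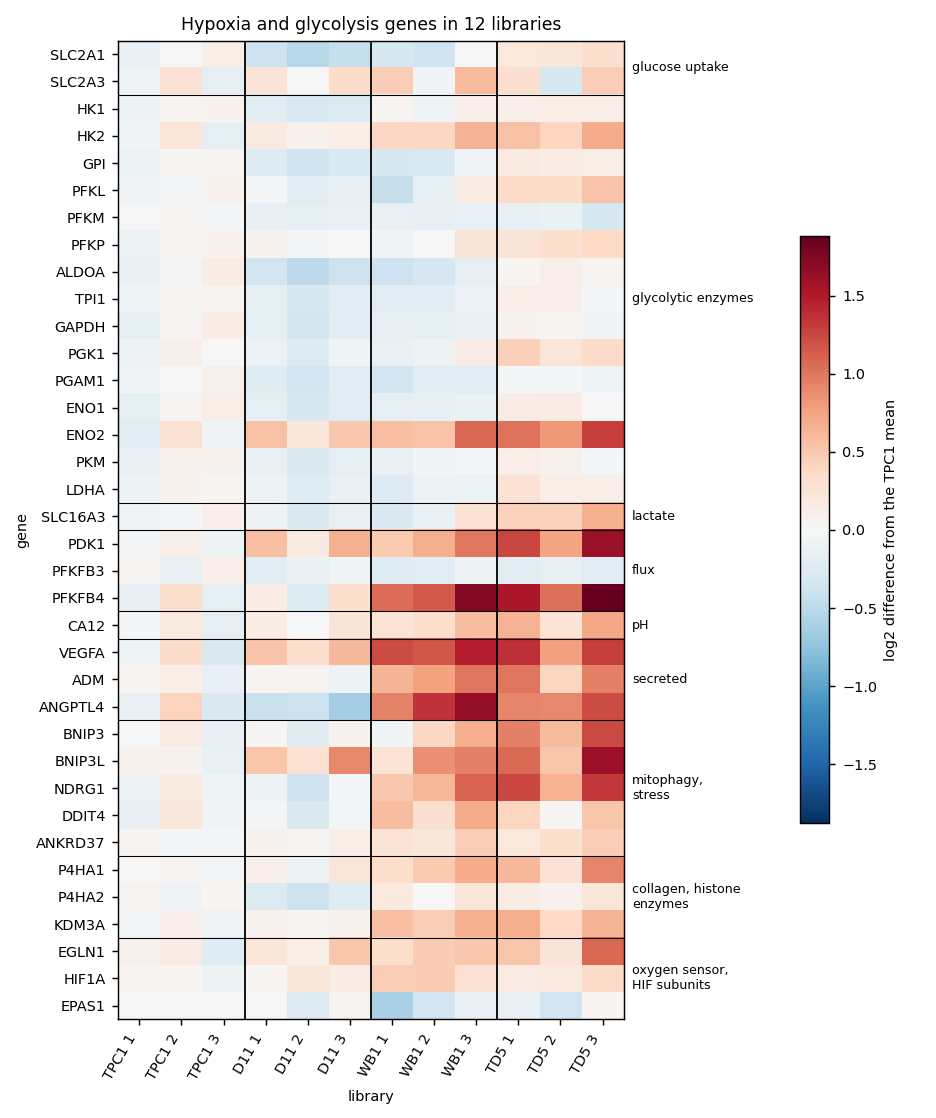
Each cell is the log2 difference of one library from the TPC1 mean (values per 1000000 + 1), for the 36 tested genes in rows by role and the 12 libraries in columns. Red cells gather in WB1 and TD5 in the lower part, from PDK1 and PFKFB4 to EGLN1, while most glycolytic enzymes are pale in every line.

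**Figure D2:**
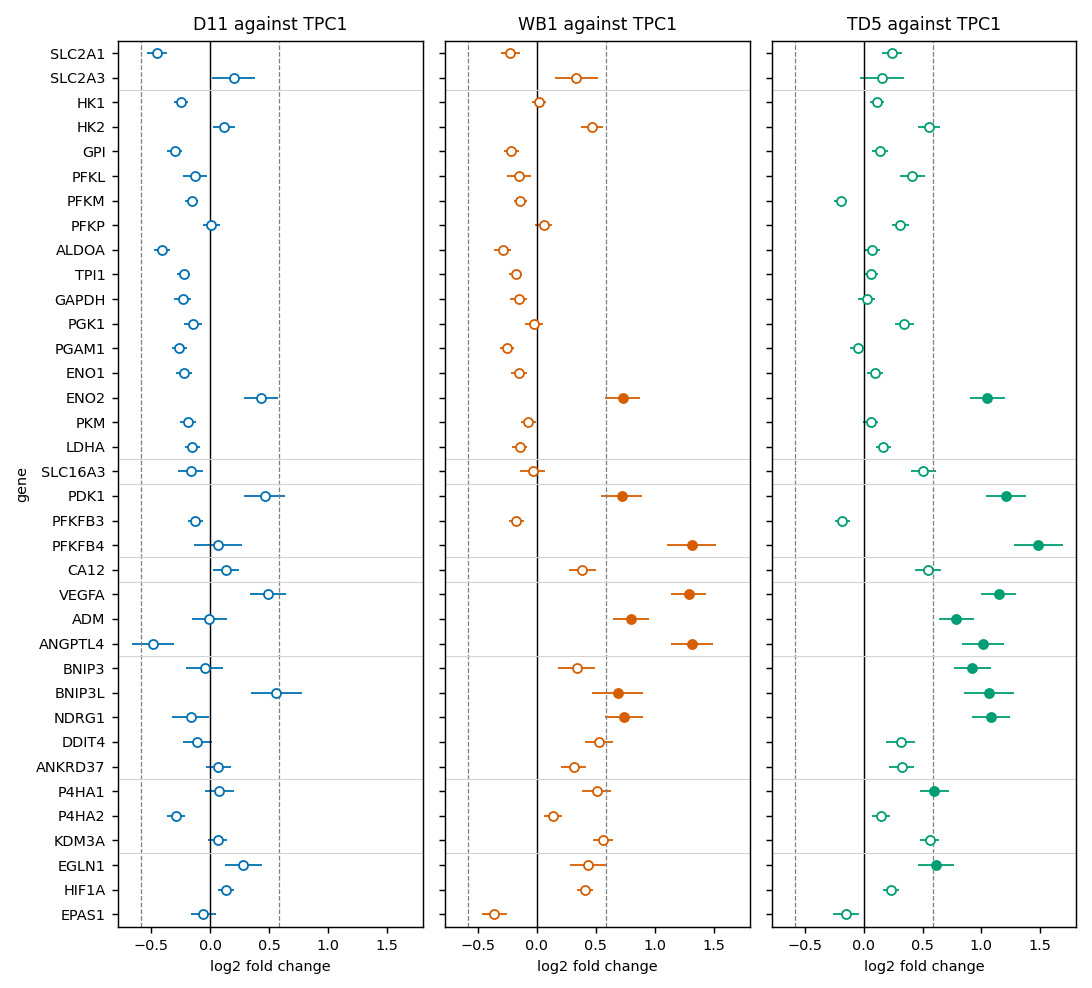
Points are log2 differences from TPC1 with bars of 1 standard error (limma, 3 libraries against 3, spread estimated from all 12), 1 panel per clone. Filled points were called, and dashed lines mark 1.5-fold. D11 has 0 filled points, WB1 has 8 and TD5 has 11, all to the right of 0.

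Glucose enters through SLC2A1 (GLUT1, the ubiquitous carrier) and SLC2A3 (GLUT3, a high-affinity carrier). SLC2A1 had 2899, 3149 and 3424 scaled reads in TPC1, 2389, 2187 and 2330 in D11, 2561, 2420 and 3144 in WB1, with 3626, 3652 and 3897 in TD5. D11 was below every TPC1 library and TD5 above every library of the other lines. SLC2A1 was not called against TPC1 (-0.45 ± 0.08, adjusted p = 0.00105 in D11, less than 1.5-fold), but was higher in TD5 than in D11 by 0.69 ± 0.08 on the log2 scale (adjusted p = 2.96e-05). SLC2A3 ran from 298 to 571 scaled reads in the 12 libraries with overlap between all lines. Its reads may be split with a near copy, SLC2A3P1, which had means of 305.7, 426.7, 426.3 and 288.0 scaled reads in TPC1, D11, WB1 and TD5, so its level is uncertain.

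Together the 16 glycolytic enzymes took 1.69% ± 0.134 (SD, n = 3) of all scaled reads in TPC1, 1.458% ± 0.071 in D11, 1.545% ± 0.060 in WB1 and 1.812% ± 0.066 in TD5. By scaled reads alone, PKM (pyruvate kinase), ENO1 (enolase) and GAPDH had means of 67774, 64271 and 63993 in TPC1. Levels per kilobase used all annotated exons of a gene joined, which can be longer than a single mRNA, so their ranking depends on the annotation. Per kilobase of exon, GAPDH, which oxidises glyceraldehyde 3-phosphate, led with a mean of 26708 scaled reads in TPC1, then ENO1 (12322) and PKM (7906). At the other end of the 39 genes, ALDOC was at 6.76, CA9 at 0.83 and EGLN3 at 0.45. Of the 15 enzymes tested, ENO2 was the 1 called against TPC1. In D11, 9 of the others passed the adjusted p below TPC1 and under 1.5-fold, the furthest being ALDOA (aldolase A, -0.41 ± 0.07, adjusted p = 0.000479) and GPI (glucose-6-phosphate isomerase, -0.30 ± 0.06, adjusted p = 0.00254). In TD5, HK2 (hexokinase 2, 0.55 ± 0.09, adjusted p = 0.0011), PFKL (0.41 ± 0.10, adjusted p = 0.0153), PGK1 (phosphoglycerate kinase, 0.35 ± 0.08, adjusted p = 0.00875) and PFKP (0.31 ± 0.07, adjusted p = 0.00961) passed the adjusted p above TPC1 but stayed under 1.5-fold, and PFKM passed it below TPC1 (-0.19 ± 0.06, adjusted p = 0.0298). In WB1, HK2 passed it above TPC1 (0.47 ± 0.09, adjusted p = 0.00184) and ALDOA, PGAM1, GPI and TPI1 below it, by -0.29 to -0.18 on the log2 scale and under 1.5-fold (adjusted p from 0.00505 to 0.0238). GAPDH overlaps AC006064.4 on the other strand, whose row had a mean of 27979 scaled reads in TPC1 and 23515 in D11. The strand setting of the counting is not given in the sources used here, so reads of the pair may be mixed.

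ENO2, the neuronal isoform of enolase, stood apart from the other enzymes. It had 1076, 1511 and 1162 scaled reads in TPC1, 1824, 1455 and 1764 in D11, 1847, 1804 and 2628 in WB1, with 2532, 2197 and 3088 in TD5. WB1 and TD5 were above every TPC1 library, whereas D11 overlapped TPC1. The log2 difference was 0.73 ± 0.15 (adjusted p = 0.00187) in WB1, 1.05 ± 0.15 (adjusted p = 0.000198) in TD5 and 0.43 ± 0.15 in D11, where the fold stayed under 1.5.

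SLC16A3 (MCT4, which exports lactate) had 3234, 3298 and 3626 scaled reads in TPC1, 3178, 2804 and 3069 in D11, 2808, 3113 and 4089 in WB1, with 4555, 4550 and 5383 in TD5. TD5 was above every other library and D11 below every TPC1 library. It was called in TD5 against D11 only (0.67 ± 0.10, adjusted p = 0.000325), a call that GC correction ended (0.55), and against TPC1 it passed the adjusted p in TD5 at 0.51 ± 0.10 (adjusted p = 0.00447), under 1.5-fold. CSNK1D, which overlaps it on the other strand, had means of 3654 to 4273 scaled reads in the lines.

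Of the regulators of flux, PDK1, which inhibits pyruvate dehydrogenase, and PFKFB4, which makes or removes the activator of phosphofructokinase, were called in WB1 and TD5. PDK1 had 708, 776 and 668 scaled reads in TPC1, 1064, 804 and 1148 in D11, 1013, 1161 and 1438 in WB1, with 1746, 1210 and 2248 in TD5. All 9 clone libraries were above all 3 TPC1 libraries. The log2 difference from TPC1 was 0.72 ± 0.17 (adjusted p = 0.00551) in WB1, 1.21 ± 0.17 (adjusted p = 0.000228) in TD5 and 0.46 ± 0.17 (adjusted p = 0.0481, under 1.5-fold) in D11. With GC correction the WB1 difference was under 1.5-fold (0.56, adjusted p = 0.0162). AC078883.1, which overlaps PDK1 on the other strand, had means of 78.3, 123.3, 143.3 and 157.0 scaled reads in TPC1, D11, WB1 and TD5. PFKFB4 had 270, 383 and 265 scaled reads in TPC1, 334, 249 and 381 in D11, 645, 699 and 1048 in WB1, with 912, 642 and 1164 in TD5. Every WB1 and TD5 library was above every TPC1 and D11 library, and D11 lay within the TPC1 range or just under it. PFKFB4 rose by 1.31 ± 0.20 on the log2 scale in WB1 (2.48-fold, adjusted p = 0.000251) and by 1.48 ± 0.20 in TD5 (2.80-fold, adjusted p = 0.000161). PFKFB3, its inducible relative, ran from 3931 to 4921 scaled reads, and its largest difference, -0.18 ± 0.06 in TD5 against TPC1, was not called.

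**Figure D3:**
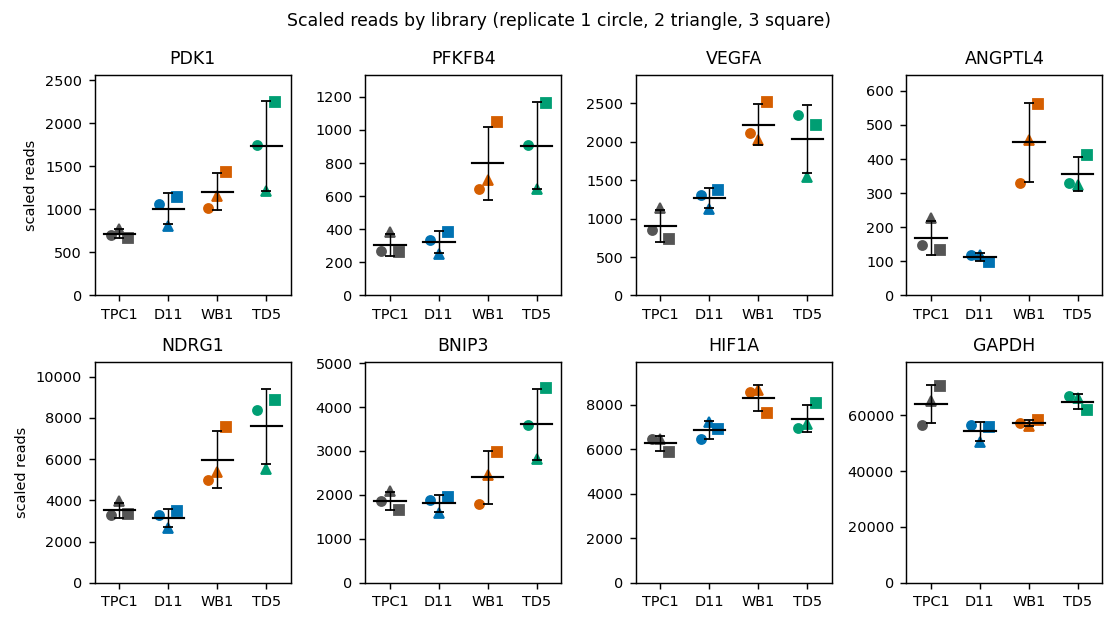
Scaled reads in each library (y axis, linear from 0) for 8 genes in the 4 lines. Symbols are replicates, horizontal bars are line means and error bars are SD (n = 3). PFKFB4, ANGPTL4 and NDRG1 of WB1 and TD5 lie above every TPC1 and D11 library, whereas HIF1A and GAPDH were called in none of the 6 comparisons.

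CA9 and CA12 are membrane carbonic anhydrases that help export acid. CA9, a classic HIF target, was at 0 to 3 scaled reads in every library. CA12 ran from 2829 to 3628 scaled reads in TPC1, 3200 to 3776 in D11, 3786 to 4743 in WB1 and 3803 to 5273 in TD5. WB1 and TD5 did not overlap TPC1. Its log2 differences of 0.38 ± 0.11 (limma adjusted p = 0.0181) in WB1 and 0.55 ± 0.11 (adjusted p = 0.00471) in TD5 stayed under 1.5-fold.

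All 3 secreted factors were called in WB1 and in TD5 and none in D11 (all at 1.5-fold or more, limma). VEGFA, the growth factor of blood vessels, had 847, 1141 and 740 scaled reads in TPC1, 1306, 1120 and 1376 in D11, 2116, 2027 and 2523 in WB1, with 2355, 1536 and 2223 in TD5. WB1 and TD5 were above every TPC1 and D11 library. The log2 difference was 1.29 ± 0.15 in WB1 (2.44-fold, adjusted p = 2.08e-05) and 1.15 ± 0.15 in TD5 (2.21-fold, adjusted p = 0.000127), and in D11 it was 0.49 ± 0.15 (adjusted p = 0.0214), under 1.5-fold. AL136131.3, which overlaps VEGFA on the other strand, had means of 44, 58.3, 118.3 and 143.0 scaled reads in TPC1, D11, WB1 and TD5.

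ANGPTL4, an inhibitor of lipoprotein lipase, had 147, 227 and 133 scaled reads in TPC1, 118, 120 and 99 in D11, 331, 455 and 563 in WB1, with 330, 324 and 413 in TD5. D11 lay below every TPC1 library and the other clones above. Its log2 difference was 1.31 ± 0.18 in WB1 (adjusted p = 7.6e-05), 1.02 ± 0.18 in TD5 (adjusted p = 0.00131) and -0.49 ± 0.18 in D11 (adjusted p = 0.0448, under 1.5-fold). ADM, the vasodilator adrenomedullin, had 70, 76 and 59 scaled reads in TPC1, 70, 71 and 62 in D11, 117, 128 and 157 in WB1, with 156, 97 and 150 in TD5. WB1 and TD5 did not overlap TPC1 or D11. It rose by 0.80 ± 0.15 in WB1 (adjusted p = 0.0011) and by 0.79 ± 0.15 in TD5 (adjusted p = 0.00241), both on the log2 scale, but with a pseudocount of 4 both stayed under 1.5-fold (0.53 and 0.52).

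BNIP3 and BNIP3L, receptors that mark mitochondria for removal, moved in TD5 and BNIP3L also in WB1. BNIP3 had 1859, 2078 and 1667 scaled reads in TPC1, 1884, 1587 and 1947 in D11, 1786, 2442 and 2988 in WB1, with 3591, 2808 and 4430 in TD5. TD5 lay above every TPC1 and D11 library, and WB1 overlapped TPC1. The log2 difference was 0.92 ± 0.16 in TD5 (adjusted p = 0.00118) and 0.34 ± 0.16 in WB1 (adjusted p = 0.117). BNIP3L had 933, 931 and 804 scaled reads in TPC1, 1280, 1070 and 1672 in D11, 1059, 1619 and 1732 in WB1, with 1878, 1286 and 2732 in TD5. All clone libraries were above all TPC1 libraries. PNMA2, which overlaps BNIP3L on the other strand, had means of 72.3 scaled reads in TPC1 and 3.0 to 19.3 in the clones. The log2 difference of BNIP3L was 0.68 ± 0.21 (adjusted p = 0.0232) in WB1 and 1.064 ± 0.21 (adjusted p = 0.00358) in TD5, and 0.56 ± 0.21 (adjusted p = 0.0525) in D11. Leaving out TPC1 replicate 3, WB1 replicate 2 or WB1 replicate 3 ended the WB1 call (0.55 to 0.61, adjusted p from 0.0851 to 0.0953), as did GC correction (0.57) and no filter on low values (adjusted p = 0.0639).

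NDRG1, a stress-response gene induced by HIF, had 3289, 3948 and 3318 scaled reads in TPC1, 3280, 2664 and 3468 in D11, 4970, 5390 and 7564 in WB1, with 8379, 5502 and 8879 in TD5. WB1 and TD5 were above every TPC1 and D11 library. It rose by 0.74 ± 0.16 on the log2 scale in WB1 (adjusted p = 0.00302) and by 1.08 ± 0.16 in TD5 (adjusted p = 0.000351), with -0.17 ± 0.16 (adjusted p = 0.432) in D11. DDIT4 (REDD1, an inhibitor of mTORC1) had 3021, 3902 and 3277 scaled reads in TPC1, 3305, 2793 and 3313 in D11, 5072, 4164 and 5493 in WB1, with 4466, 3445 and 4849 in TD5. WB1 was above TPC1 and D11, and TD5 overlapped TPC1. Against TPC1 it stayed under 1.5-fold in WB1 (0.53 ± 0.12, adjusted p = 0.00446). ANKRD37, a HIF target of little-known role, ran from 105 to 111 scaled reads in TPC1, 109 to 117 in D11, 127 to 155 in WB1 and 126 to 155 in TD5. It was not called, and its log2 difference in WB1 was 0.31 ± 0.11 (limma adjusted p = 0.0361, under 1.5-fold). UFSP2, which overlaps 40.3% of its exons on the other strand, had a mean of 560 scaled reads, so reads of the pair may be mixed.

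The hydroxylases P4HA1 and P4HA2 modify collagen prolines, and KDM3A removes histone methyl marks. P4HA1 had 1047, 1080 and 1045 scaled reads in TPC1, 1131, 987 and 1243 in D11, 1341, 1488 and 1727 in WB1, with 1624, 1286 and 2014 in TD5. WB1 and TD5 were above every TPC1 and D11 library. It was called in TD5 (0.60 ± 0.12, adjusted p = 0.00456) and stayed under 1.5-fold in WB1 (0.51 ± 0.12, adjusted p = 0.00653). In TD5 it was also under 1.5-fold without TD5 replicate 3 (0.44, adjusted p = 0.017), with GC correction (0.57) and with a pseudocount of 4 (0.58). KDM3A lay just under the fold threshold in both, at 0.56 ± 0.08 (adjusted p = 0.000143 in WB1 and 0.000262 in TD5). P4HA2 ran from 670 to 1038 scaled reads and was not called.

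Of the oxygen sensor and HIF subunit genes, EGLN1 was the 1 called. EGLN1 (PHD2, the main HIF prolyl hydroxylase) had 1556, 1627 and 1245 scaled reads in TPC1, 1712, 1588 and 2097 in D11, 1847, 2053 and 2085 in WB1, with 2114, 1737 and 3105 in TD5. WB1 and TD5 were above every TPC1 library, with D11 overlapping. It was called in TD5 (0.61 ± 0.15, adjusted p = 0.0159), but not without TD5 replicate 3 (0.38, adjusted p = 0.0541) or TPC1 replicate 3 (0.50, adjusted p = 0.0958), nor with GC correction (0.58).

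HIF1A had 6444, 6473 and 5864 scaled reads in TPC1, 6446, 7231 and 6897 in D11, 8591, 8672 and 7648 in WB1, with 6938, 7141 and 8059 in TD5. WB1 and TD5 were above every TPC1 library. Its log2 difference was 0.41 ± 0.07 (adjusted p = 0.000554) in WB1 and 0.23 ± 0.07 (adjusted p = 0.0359) in TD5, both under 1.5-fold. AL137129.1 overlaps HIF1A on the same strand at a mean of 1523 scaled reads in TPC1, so some reads may have been dropped or split. EPAS1 had 4960, 4934 and 4984 scaled reads in TPC1, 5009, 4207 and 5121 in D11, 3249, 3872 and 4542 in WB1, with 4565, 3852 and 5072 in TD5. Its level in WB1 was below every TPC1 library (-0.36 ± 0.11, adjusted p = 0.0178, under 1.5-fold), and D11 and TD5 overlapped TPC1.

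Paired isozymes were compared as shares within a library, which library size does not affect. For each of 13 pairs and 3 clones, the log2 ratio was compared with TPC1 by an exact two-sided permutation test of 3 libraries against 3, where 0.1 is the smallest p possible. The 3 pairs with ALDOC, CA9 or EGLN3, which lay too low to be tested, are not described. In the other 10 pairs, 21 of 30 comparisons reached it, with log2 ratios that did not overlap between the libraries. How often other pairs of genes did so was not counted, so the 21 are not read as particular to these pairs. SLC2A3/SLC2A1 in D11 and WB1 is among them, though the level of SLC2A3 is uncertain. The smallest adjusted p over all 39 comparisons was 0.15, so none can pass 0.05. Exon length here is that of all annotated exons of a gene joined, which can be longer than a single mRNA. It is the same for every line, so lines can be compared, but the size of a share depends on the annotation. On read density per exon length, HK2 made up 27.1% ± 2.95 (SD, n = 3) of HK1 plus HK2 in TPC1, 32.3% ± 0.28 in D11, 33.6% ± 1.41 in WB1 and 33.5% ± 2.38 in TD5. All clone libraries were above all TPC1 libraries. ENO2 made up 2.31% ± 0.35 of ENO1 plus ENO2 in TPC1, 3.58% ± 0.26 in D11, 4.23% ± 0.83 in WB1 and 4.46% ± 1.00 in TD5. PFKFB4 made up 6.29% ± 1.82 of PFKFB3 plus PFKFB4 in TPC1, 7.06% ± 1.28 in D11, 16.2% ± 2.99 in WB1 and 18.1% ± 4.56 in TD5. Here D11 overlapped TPC1 and the other clones did not. LDHB, the lactate dehydrogenase subunit that favours pyruvate formation, was 43.8% ± 1.24 of LDHA plus LDHB in TPC1 and 40.2% ± 1.52 in TD5, without overlap. Without division by length, LDHB lay further below LDHA, at a log2 ratio of -1.375 in TPC1 and -1.588 in TD5. PFKM was 68.2% ± 1.2 of PFKM plus PFKL in TPC1 and 58.4% ± 3.44 in TD5. EPAS1 was 35.9% ± 1.39 of HIF1A plus EPAS1 in TPC1 and 24.9% ± 4.31 in WB1, and P4HA2 was 20.4% ± 1.13 of P4HA1 plus P4HA2 in TPC1 and between 15.8% and 16.5% in the clones, without overlap.

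**Figure D4:**
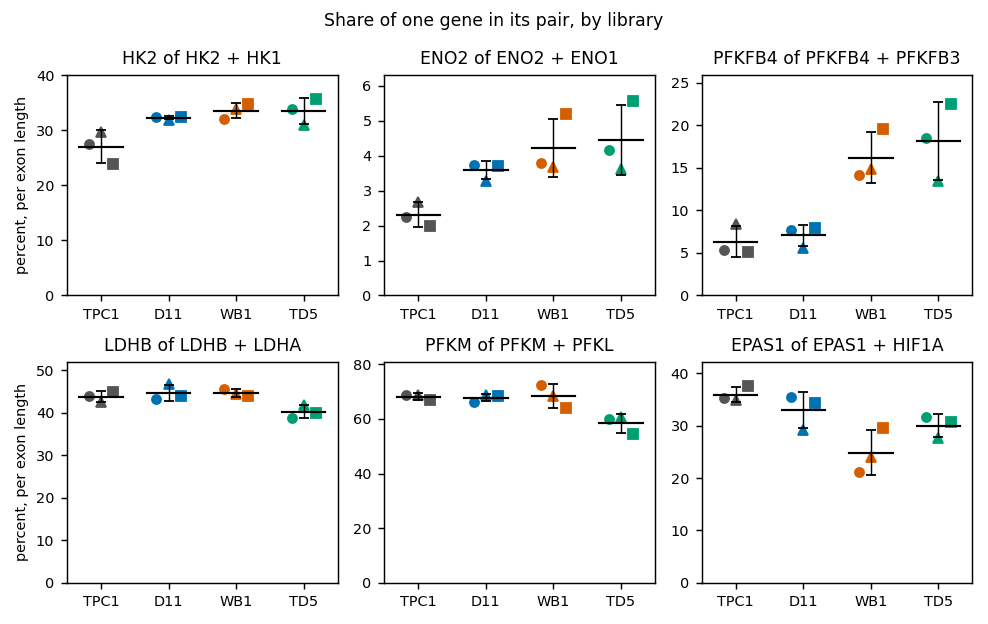
Share of the first named gene in its pair, in percent of the summed read density per exon length (y axis, from 0), by library in the 4 lines. Symbols are replicates 1 to 3 (circle, triangle, square), bars line means and error bars SD (n = 3). The PFKFB4 share of WB1 and TD5 lies above every TPC1 and D11 library.

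The clones were then set against each other. The log2 differences use no TPC1 library, but the spread of each gene was estimated from all 12 libraries, TPC1 included. WB1 had 6 of the 36 genes higher than D11 (all tested genes, 1.97%) and 0 lower (0.88%), with 1 lower at an unadjusted p. They were ANGPTL4, PFKFB4, NDRG1, ADM, VEGFA and DDIT4, with log2 differences from 0.64 to 1.80. TD5 had 10 higher than D11 (1.67%) and 0 lower (2.32%), with 0 lower at an unadjusted p. These were ANGPTL4, PFKFB4, NDRG1, BNIP3, ADM, PDK1, SLC2A1, SLC16A3, VEGFA and ENO2. In TD5 against WB1, BNIP3 was the 1 gene called higher (0.611%), at 0.59 ± 0.16 (adjusted p = 0.0225), and 0 were lower (1.72%), with 1 lower at an unadjusted p. That call was lost without TD5 replicate 1 or 3 or WB1 replicate 1 or 2 (0.39 to 0.61, adjusted p from 0.055 to 0.121), without the filter on low values (adjusted p = 0.0625), with only the lines compared (adjusted p = 0.058) and with a pseudocount of 4 (0.58). Leaving out 1 library also brought DDIT4 in WB1 against D11 (D11 replicate 2 or WB1 replicate 3) and, in TD5 against D11, VEGFA (D11 replicate 2, TD5 replicate 1 or 3), ENO2 (D11 replicate 2 or TD5 replicate 3) and PDK1 (TD5 replicate 3) under 1.5-fold, with log2 differences from 0.49 to 0.58. The voom counts of the 3 comparisons were 6, 10 and 1 higher. Comparisons with one clone in common share its libraries.

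The 14 genes called in a comparison also moved together between libraries of one line. WB1 replicate 3 was the highest of its line for all 14, and for 33 of the 36 tested genes, where 37.1% of all tested genes were highest in it. TD5 replicate 2 was the lowest of its line for 13 of the 14 and for 21 of the 36 (all tested genes, 37.0%). Replicate 3 of TD5 was the highest for 12 of the 14 and for 21 of the 36 (37.3%). Of the 22 genes not called, TD5 replicate 2 was the lowest for 8 and replicate 3 the highest for 9. For the 15 glycolytic enzymes tested, TD5 replicate 3 was the lowest for 8, so the shared order in TD5 was that of the called genes. D11 replicate 2 was the lowest for 12 of the 14 and for 32 of the 36 (28.0%). In TPC1, replicate 2 was the highest for 11 of the 14 and for 20 of the 36 (27.3%). The median within-line SD of the 14 genes was 0.15, 0.16, 0.27 and 0.33 on the log2 scale in TPC1, D11, WB1 and TD5, against 0.10, 0.08, 0.10 and 0.12 over all tested genes and 0.09, 0.07, 0.09 and 0.08 over the glycolytic enzymes. BNIP3L spread most, with a 2.12-fold range within TD5. Without WB1 replicate 3, 5 genes instead of 8 were called higher in WB1 than in TPC1, and ENO2, NDRG1 and BNIP3L were lost. The cause of this shared spread was not tested.

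Other genes of the pathway were described by list. Of 40 further HIF targets, 36 were tested, and 1, 9 and 12 were called higher than TPC1 in D11, WB1 and TD5, where 2.89%, 3.39% and 1.12% of all tested genes were called, and 0 lower in each (all tested genes, 1.95%, 1.59% and 1.48%, and at an unadjusted p, 4, 2 and 3 of the list lower). The single call in D11 is near the share of all tested genes. The median log2 difference was 0.11, 0.29 and 0.48. The largest were MIR210HG, the host transcript of the hypoxia-induced miR-210 (1.43 ± 0.20 in WB1 and 1.63 ± 0.20 in TD5), PPFIA4, a liprin (1.504 ± 0.17 and 1.34 ± 0.17), STC1, the secreted stanniocalcin (1.31 ± 0.19 and 1.05 ± 0.19), and TMEM158 (0.97 ± 0.16 and 1.01 ± 0.16). MIR210HG had 35, 61 and 35 scaled reads in TPC1, 51, 61 and 75 in D11, 132, 124 and 199 in WB1, with 197, 127 and 209 in TD5. PPP1R3C, a glycogen-targeting phosphatase subunit, was not tested because of its low level, and had 28, 19 and 22 scaled reads in TPC1 and 0 to 5 in the 9 clone libraries. TMEM158 was the 1 gene called in D11 (0.86 ± 0.16, adjusted p = 0.000927).

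In the other lists, none of 14 HIF pathway regulators tested was called in a clone (7, 4 and 5 at an unadjusted p in D11, WB1 and TD5), nor any of 8 pentose phosphate genes (5, 4 and 1). In lists of 14 and 8 genes, the shares of all tested genes called amount to less than 1 gene in each comparison, so nothing is read from these zeros. Of 18 other glycolysis and transport genes, SLC2A10 was lower in D11 (-0.85 ± 0.14, adjusted p = 0.000421, all tested genes, 1.95%). SLC2A6 was lower in WB1 (-0.61 ± 0.11, adjusted p = 0.000822, all tested genes, 1.59%). SLC2A6 had 470, 410 and 546 scaled reads in TPC1, 374, 371 and 320 in D11, 274, 301 and 333 in WB1, with 342, 416 and 365 in TD5. D11 was thus also below every TPC1 library, though not called. SLC2A10 had 55, 48 and 44 scaled reads in TPC1 and 20, 20 and 15 in D11, without overlap. Of 12 genes of pyruvate entry into mitochondria or of pyruvate dehydrogenase and its regulators, PDP1 was higher in D11 (0.62 ± 0.13, adjusted p = 0.00242, all tested genes, 2.89%). PDP1 had 676, 640 and 539 scaled reads in TPC1, 928, 907 and 1046 in D11, 876, 1003 and 858 in WB1, with 791, 621 and 1014 in TD5. WB1 was also above every TPC1 library, though not called. In lists of 18 and 12 genes these shares also amount to less than 1 gene, so nothing about the lists is read from single calls. PDP1 is the phosphatase that opposes PDK1.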

How the data were processed

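The series holds 12 mRNA libraries, with 3 per line (TPC1, D11, WB1 and TD5). The authors mapped paired reads to GRCh38 with STAR 2.5.3a, counted them per gene of Ensembl release 90 with HTSeq 0.9.1 and scaled the counts to 20000000 reads. The deposited values, treated as a score, are whole numbers that sum to 20009833 to 20014191 per library and are called scaled reads. They are not counts, so the edgeR quasi-likelihood test that the authors ran was not used. The authors' comparisons were not used. Depth was estimated from the gaps between whole numbers (12700000 to 21020000 reads). Floors cover counting error only, whereas standard errors come from the spread between libraries.

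Values were divided by library sums, log2(value per 1000000 + 1) entered a limma 3.58.1 fit under R 4.3.3 (1 mean per line, all 12 libraries, mean-variance trend), and p-values were adjusted by Benjamini-Hochberg over 16027 genes at 1 per 1000000 or more in 3 or more libraries. Called means adjusted p under 0.05 and at least 1.5-fold. Fold changes are on the log2(value per 1000000 + 1) scale, which understates low genes. The fit was tested on simulated data. Ratios used exact permutation tests (scipy 1.17.1). Promoters were RefSeq's (GRCh38.p14) and gene models GENCODE's on GRCh38.

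Groups came from sample titles. The 39 genes, their role groups and the lists were chosen with earlier results of these data known. The pathway lists were other HIF targets, HIF pathway regulators, other glycolysis and transport genes, pyruvate entry with pyruvate dehydrogenase, and the pentose phosphate pathway. The marker lists were thyroid, epithelial, fibroblast, endothelial and leukocyte markers. Genes given by library are DICER1, HIF1A, EPAS1 and every member called in at least 1 of 6 comparisons, the others by range, and of each other list up to 4 genes with the largest called change. CA12, KDM3A and other uncalled members given with a test were chosen after their values were seen. Same-numbered libraries were checked for shared deviations from the line means. All 3 correlations passed 0.1 in TD5 against D11 (0.107, 0.172 and 0.348), and in no other comparison (-0.273 to 0.106). The values given come from the fit without the replicate block, and with the block the count in TD5 against D11 was also 10. Alternatives were other filters, pseudocounts, scalings, fold minimums, GC and length corrections, voom, the replicate block and each library left out.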

Additional observations from a re-analysis of the deposited data

Results flagged for a closer look

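Differences between clones of one parental line were listed where limma called them directly, at an adjusted p under 0.05 over all tested genes and at least 1.5-fold. WB1 was higher than D11 on the log2 scale for ANGPTL4 (1.80), PFKFB4 (1.25), NDRG1 (0.91), ADM (0.81), VEGFA (0.80) and DDIT4 (0.64). TD5 was higher than D11 for ANGPTL4 (1.501), PFKFB4 (1.42), NDRG1 (1.25), BNIP3 (0.97), ADM (0.79), PDK1 (0.75), SLC2A1 (0.69), SLC16A3 (0.67), VEGFA (0.66) and ENO2 (0.62). TD5 was higher than WB1 for BNIP3 (0.59), a call lost when any of 4 of the 6 libraries compared was left out. In TD5 against D11, ENO2 and SLC16A3 fell under 1.5-fold with GC correction (0.58 and 0.55). ADM fell under it with a pseudocount of 4 in both WB1 and TD5 against D11 (0.53 in each). The calls of DDIT4, VEGFA, ENO2 and PDK1 that were lost with a library left out are given above. Each value rests on 3 libraries of 1 clone against 3 of another.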

How the results depend on the processing

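Counts of called genes stayed within 1.5 times of those reported under each alternative not named here. With no minimum fold, the counts higher were 3 in D11, 16 in WB1 and 19 in TD5 against TPC1, 12 in WB1 and 28 in TD5 against D11 and 12 in TD5 against WB1, and the counts lower than TPC1 were 12, 7 and 1. At least 2-fold left 3 in WB1 and 7 in TD5 against TPC1, 2 and 3 against D11, and 0 in TD5 against WB1. With no minimum fold or at least 2-fold, shares of all tested genes were not worked out. Nothing particular to the members is therefore read from these counts, or from the 9 enzymes that passed the adjusted p below TPC1 in D11. The single call of TD5 against WB1 became 0 without the filter on low values, with a pseudocount of 4 or with only the lines compared. It became 3 with median-of-ratios scaling, 2 with GC correction and 3 with length correction, and 2 and 3 with these corrections and the replicate block, which were added after seeing the data. The cause was not tested.

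With each library left out, the counts higher ran from 0 to 2 in D11 (2 without D11 replicate 2, 1 without TPC1 replicate 2), 5 to 10 in WB1 and 9 to 14 in TD5 against TPC1, 5 to 6 and 7 to 13 against D11, and 0 to 4 in TD5 against WB1 (4 without WB1 replicate 3 or TD5 replicate 2, 0 without WB1 replicate 1, WB1 replicate 2 or TD5 replicate 3). The 5 in WB1 was without WB1 replicate 3. The count lower in D11 ran from 0 to 1 (1 without TPC1 replicate 3). The replicate block left every count as it was, 8 and 11 against TPC1, 6 and 10 against D11, and voom did too. Of the calls of single genes, 196 of 216 stayed with a library of a line compared left out and 462 of 504 under other settings, with 0 reversed. The 504 include the setting with no minimum fold, which cannot lose a call. Neither that setting nor at least 2-fold can reverse a call, since both use the same fit. Over all tested genes, median-of-ratios scaling moved the split of higher and lower calls in D11 from 463 and 312 to 340 and 365, and that of WB1 from 544 and 255 to 418 and 331. The depth of 12700000 to 21020000 reads did not allow a test of CA9, EGLN3 or ALDOC.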
